A study of Mus musculus with 5 samples.

Results

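Genes of the core spliceosome and of the SR family of splicing factors were compared between nucleated red cell precursors (erythroblasts) of mouse marrow whose labels read Flvcr deleted and those whose labels read wild type. Flvcr1 encodes a heme exporter. The rule for members uses names and no measured value: it takes probes whose platform gene symbol is an Snrp, Lsm, Sf3a, Sf3b, Prpf or Srsf symbol in its numbered or lettered form. This gave 114 of 45281 probes and 52 of 19057 gene symbols, in 4 sets: 21 Sm/LSm genes (Snrp and Lsm), 9 SF3 genes, 12 PRPF genes and 10 SR genes. Total RNA had been measured on 5 Illumina bead arrays, all from strain C57BL/6J: 3 labelled wild type and 2 labelled Flvcr deleted. The labels used here state no age, no driver of the deletion and no treatment. Nor do they tie replicates to separate animals, so each p-value measures the spread of these samples alone, and that spread may be technical.

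Introns are removed from new transcripts by the spliceosome, which is assembled on each intron from the small nuclear ribonucleoprotein particles (snRNPs) U1, U2, U4, U5 and U6. Sm proteins form a ring around the RNA of U1, U2, U4 and U5, and a related ring of LSm proteins holds U6. The SF3A and SF3B complexes belong to U2 and help it to grip the branch point. Several PRPF proteins build the U4/U6.U5 particle or drive its rearrangement, and others act elsewhere in splicing. SR proteins bind exons and recruit the machinery to splice sites. Erythroblasts are known to change the splicing of many transcripts, among them those of the red cell skeleton, as they mature.

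Values are log2 signals as the authors deposited them. Background signals peak near 6.70, and a floor was set above that peak, at 6.83. A gene was tested if at least 1 probe lay above that floor on 2 or more arrays, and its brightest such probe was used. Across probes, Pearson's r was 0.989 to 0.992 for arrays within a group and 0.948 to 0.954 between groups. The Flvcr1 probe above background read 9.88 and 9.75 on the arrays labelled Flvcr-deleted against 8.16, 8.32 and 8.25 on those labelled wild-type. It was higher where the gene is labelled deleted. No source used here places this probe inside or outside the deleted part, so it is no check on the labels, and every direction given rests on them. Of the erythroid markers, 12 were tested and all 12 lay above the floor on the 3 wild-type arrays, while Epb42 lay above it on no array. In the arrays labelled Flvcr-deleted, 9 of these 12 fell and none rose, and the sum of their linear signals ranged from 84737 to 90461 against 115194 to 123379 in wild type. Markers of some other marrow cells fell too, with 6 of 13 neutrophil markers lower (summed linear signal 6246 to 10674 against 31446 to 36279) and 6 of 7 markers of mast cells, basophils or eosinophils lower (1239 to 1252 against 6295 to 8943). Lower markers also numbered 3 of 5 for B cells, 2 of 3 for megakaryocytes, 1 of 2 for T and NK cells and 1 of 11 for macrophages, and no marker of any of these lists was higher. Among all genes tested 17.5% were lower, so the macrophage share (9.09%) was below that of the array. The T and NK marker that did not pass had a log2 difference of 0.24. The part of these shifts in the splicing results was not tested, and in bulk RNA fewer cells of a type and less RNA per cell cannot be told apart.

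Of the 52 members, 47 were tested. In the arrays labelled Flvcr-deleted 16 of them rose, 4 fell and 27 did not pass the test (limma, Benjamini-Hochberg adjusted over all 10076 genes tested, threshold 0.05). Among all genes tested, 39.3% passed, 21.8% higher and 17.5% lower, so the members' share past the threshold, 42.6%, was close to that of the array as a whole. Their split by direction was 34.0% higher and 8.51% lower. Splicing genes are bright on these arrays, and 45 of the 47 lay above the floor on all 5. Among genes of that kind 28.5% were higher and 23.7% lower, together a larger share than the members' 42.6%. The median log2 difference of the members was 0.22, beside 0.01 for all genes tested. Differences were modest: the range over the 47 was -0.75 to 1.16 on the log2 scale. The groups did not overlap for 29 of the 47, or for 59.0% of all genes tested.

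By set, 7 of 18 Sm/LSm genes (38.9%), 5 of 8 SF3 genes (62.5%), 3 of 12 PRPF genes (25%) and 1 of 9 SR genes (11.1%) rose. Among all genes tested 21.8% were higher, and among those above the floor on all arrays 28.5%. The PRPF share lay between these shares. Counting both directions, the Sm/LSm share past the threshold, 38.9%, was near the 39.3% of all genes tested. The Sm/LSm set was drawn by name, and 1 of its risen genes, Snrpa, encodes a U1 protein that is neither Sm nor LSm. None of the Sm/LSm or SF3 genes fell, 1 PRPF gene fell (8.33%) and 3 SR genes fell (33.3%), beside 17.5% of all genes tested. The median log2 difference was 0.30 for Sm/LSm, 0.56 for SF3, 0.10 for PRPF and 0.20 for SR. The median of the SR genes lay above 0 although 3 of their 4 genes past the threshold were lower, because the 5 that did not pass lay between 0.18 and 0.28. Only counts and medians are given for sets, since no test of one set against another was made.

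**Figure D1:**
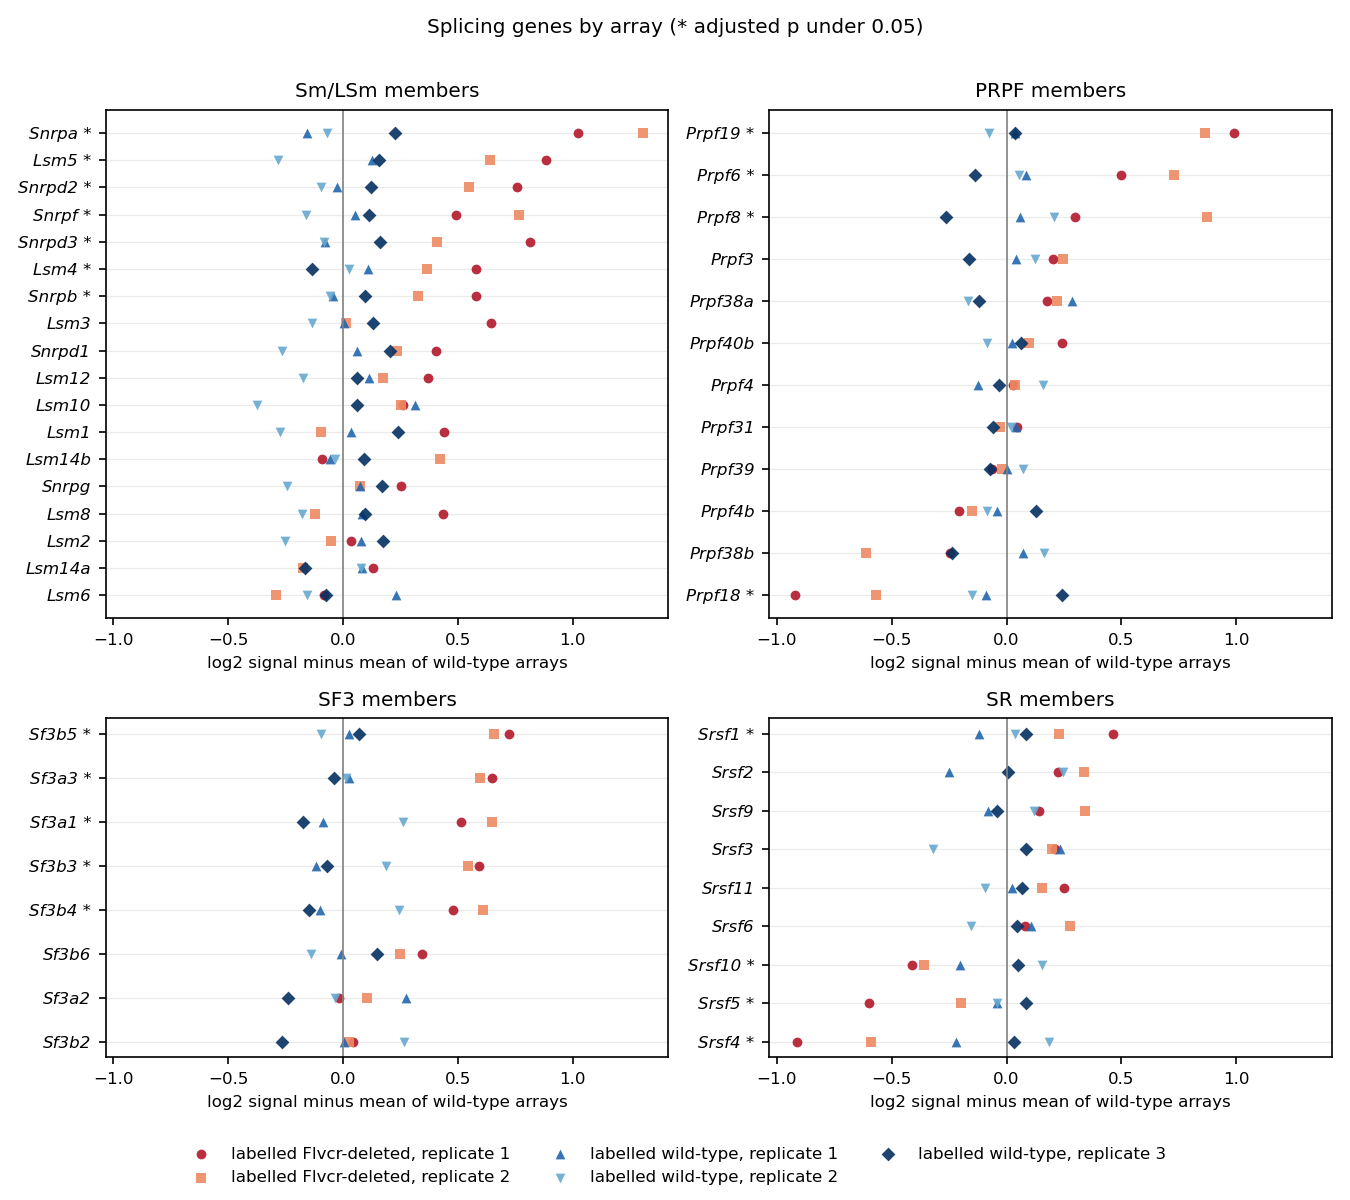
Log2 signal of each of the 47 tested members on each of the 5 arrays, minus the mean of the 3 arrays labelled wild-type (horizontal axis), by set. Each symbol is 1 array and an asterisk marks an adjusted p under 0.05. Both arrays labelled Flvcr-deleted lie to the right of all wild-type arrays for Snrpa and Prpf19 and to the left for Srsf4 and Prpf18.

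**Figure D2:**
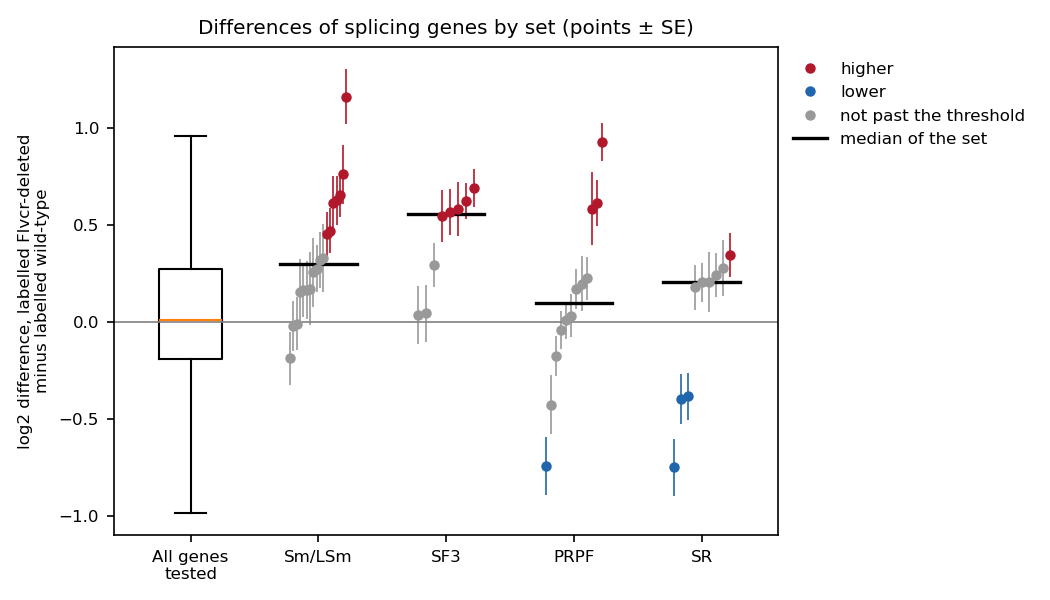
Log2 difference of each member, labelled Flvcr-deleted minus labelled wild-type, with its SE (vertical axis), by set. The box shows the quartiles and median of all 10076 genes tested and its whiskers the central 90%. The medians of Sm/LSm (0.30) and SF3 (0.56) lie above that of all genes (0.01), and the SR set holds 3 of the 4 members that fell.

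The largest difference of any member was that of Snrpa, which encodes the A protein of the U1 snRNP, the particle that recognises the 5′ splice site. Its signal was 10.48 and 10.77 in the Flvcr-deleted arrays and 9.30, 9.39 and 9.69 in the wild-type ones. Each Flvcr-deleted array lay at least as far above the highest wild-type array as the wild-type arrays lay apart. The log2 difference was 1.16 (SE 0.14), or 2.24-fold (limma, adjusted p = 2.44e-04). Its other probe also rose, with a log2 difference of 0.90 (SE 0.15, adjusted p = 0.00133 over the 17729 probes kept). RefSeq (GRCm38.p6) gives Snrpa 2 promoter entries, both on the minus strand of chromosome 7. Each holds the E-box CACGTG, the letters bound by MYC, MAX and USF proteins, within the last 100 bases before its start. They are shown because Snrpa differs most and because, of the 12 risen members with a promoter entry, it alone holds this motif. Capitals mark the E-box, which lies 73 and 32 bases before the upstream start (chr7:27196272-27196371) and 69 bases before the downstream one (chr7:27195761-27195860), counted to its initial base.
Snrpa, upstream start: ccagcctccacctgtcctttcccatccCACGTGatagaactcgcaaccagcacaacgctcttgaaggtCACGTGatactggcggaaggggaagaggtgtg
Snrpa, downstream start: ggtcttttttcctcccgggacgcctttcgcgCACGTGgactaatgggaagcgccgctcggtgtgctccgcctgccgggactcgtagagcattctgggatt

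Promoters from 250 bases before to 50 bases after the start were searched on both strands, and 44 of the 52 members had an entry (Lsm1, Lsm12, Lsm4, Prpf18, Sf3b4, Sf3b5, Snrpb and Snrpd1 had none). CACGTG was found for 4 of the 44 members (9.09%), against 8.09% of 27025 genes with an entry and 11.7% of 8220 genes tested here. Besides Snrpa these were Prpf3, Prpf39 and Prpf40b, none of which passed the test. A match describes letters in a window, not binding.

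Of the Sm ring itself, 4 of the 6 tested genes rose (66.7%) and none fell, with a median log2 difference of 0.53. Of all genes above the floor on all arrays 28.5% were higher. Snrpd2, which encodes SmD2, read 13.02 and 12.81 against 12.24, 12.16 and 12.38, a log2 difference of 0.65 (SE 0.11, 1.57-fold, adjusted p = 0.00179). Snrpf, for SmF, read 11.54 and 11.82 against 11.10, 10.89 and 11.16, with a difference of 0.63 (SE 0.13, 1.55-fold, adjusted p = 0.00385). For both genes the groups were apart by more than the spread within either.

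Snrpd3, for SmD3, read 11.88 and 11.48 against 10.99, 10.98 and 11.23 (difference 0.61, SE 0.14, 1.53-fold, adjusted p = 0.00788). Snrpb, which gives the SmB and SmB′ proteins, read 12.16 and 11.91 against 11.54, 11.52 and 11.68 (0.45, SE 0.11, 1.37-fold, adjusted p = 0.0115). In both, the Flvcr-deleted replicate 1 array was the higher of its pair. Without that array the differences were 0.41 for Snrpd3 and 0.33 for Snrpb, and neither gene passed. Such a fit, here and below, leaves 1 Flvcr-deleted array, and fewer of all genes tested pass in it. A call lost there need not be particular to the gene. With the mean of its 3 kept probes Snrpb also missed the threshold (0.35, adjusted p = 0.0657). Snrpd1, for SmD1, differed by 0.32 (SE 0.14, adjusted p = 0.117), with 12.34 and 12.17 against wild-type signals from 11.67 to 12.14, so that its lower Flvcr-deleted array lay just above the highest wild-type array. It passed without wild-type replicate 3 (0.42, adjusted p = 0.0421). Snrpg, for SmG, differed by 0.16 (SE 0.14, adjusted p = 0.408), and its groups overlapped. Probes for Snrpe, the SmE gene, and for Snrpb2, which encodes the U2B″ protein of U2, did not lie above the floor on 2 arrays and were not tested.

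Of the 7 genes LSm1 to LSm8 measured here, 2 rose and none fell, with a median log2 difference of 0.17. The share that rose, 28.6%, was close to the 28.5% of all genes above the floor on all arrays. Lsm5, a subunit shared by the nuclear U6 ring and the cytoplasmic ring of mRNA decay, read 11.59 and 11.35 against 10.83, 10.42 and 10.86 (difference 0.76, SE 0.15, 1.70-fold, adjusted p = 0.00356). Lsm4, another shared subunit, read 12.83 and 12.62 against 12.36, 12.28 and 12.12 (0.47, SE 0.12, 1.39-fold, adjusted p = 0.0109). Groups were apart for both genes, and Lsm4 missed the threshold without Flvcr-deleted replicate 1 (0.36, adjusted p = 0.105).

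The other ring genes did not pass. Lsm3 and Lsm8 were high on 1 array only: Lsm3 read 11.36 and 10.73 against 10.72, 10.58 and 10.85 (0.33, SE 0.18, adjusted p = 0.186), and Lsm8 read 11.05 and 10.49 against 10.69, 10.44 and 10.71. Lsm3 passed without Flvcr-deleted replicate 2 (0.65, adjusted p = 0.0110). Lsm8 marks the nuclear ring and Lsm1 the cytoplasmic one, and their differences were 0.16 (SE 0.17, adjusted p = 0.530) and 0.17 (SE 0.19, adjusted p = 0.539). Lsm2 differed by -0.01 (SE 0.14) and Lsm6 by -0.19 (SE 0.14), while the other probes of Lsm6 and of Lsm2 gave differences of the opposite sign, none past the threshold. Of the LSm genes outside these rings, Lsm10 of the U7 snRNP, which processes histone mRNA, Lsm12, and Lsm14a and Lsm14b of cytoplasmic mRNP granules lay between -0.02 and 0.27 and did not pass. Lsm11, the U7 partner of Lsm10, was above the floor on 1 array and was not tested.

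Sm/LSm genes also varied together between arrays of the same group. Flvcr-deleted replicate 1 exceeded replicate 2 in 15 of the 18 (83.3%, beside 52.0% of all genes tested), and wild-type replicate 2 was the lowest of the wild-type arrays in 14 of the 18 (77.8%, beside 32.6%). Their median signal relative to the wild-type mean was 0.44 and 0.24 on the Flvcr-deleted arrays and 0.07, -0.16 and 0.12 on the wild-type arrays. The groups thus stayed apart by the set's median, although the highest wild-type array and the lower Flvcr-deleted array differed by less than the wild-type arrays did among themselves. The median difference of the set was 0.30 with all arrays, 0.19 when wild-type replicate 2 was left out, 0.24 without Flvcr-deleted replicate 1 and 0.44 without replicate 2 of that group. What sets these arrays apart was not tested.

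Of the SF3 genes 5 of 8 were higher, against 21.8% of all genes and 28.5% of those above the floor on all arrays. In SF3B, 3 of 5 tested genes rose. Sf3b5, a small subunit of the SF3B core, read 11.85 and 11.79 against 11.15, 11.03 and 11.20 (difference 0.69, SE 0.10, 1.61-fold, adjusted p = 6.51e-04), and its second kept probe rose as well (0.54, adjusted p = 0.00454 over probes). Sf3b3, the large propeller-shaped subunit, read 11.11 and 11.05 against 10.40, 10.70 and 10.44 (0.57, SE 0.12, 1.48-fold, adjusted p = 0.00430). Sf3b4, which touches the pre-mRNA near the branch point, read 11.36 and 11.50 against 10.79, 11.13 and 10.74 (0.54, SE 0.13, 1.46-fold, adjusted p = 0.0108). In Sf3b3 and Sf3b4 the groups were apart, and wild-type replicate 2 was the wild-type array nearest to the other group.

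In SF3A, which bridges U2 and SF3B, 2 of 3 genes rose. Sf3a3 had the tightest groups, 11.38 and 11.33 against 10.76, 10.74 and 10.69 (difference 0.62, SE 0.09, 1.54-fold, adjusted p = 7.73e-04). Sf3a1 read 10.67 and 10.81 against 10.08, 10.42 and 9.99 (0.58, SE 0.14, adjusted p = 0.00943). Sf3a2, by contrast, differed by 0.04 (SE 0.15, adjusted p = 0.863), and Sf3b2, the partner of Sf3b4, by 0.03 (SE 0.15, adjusted p = 0.893) at signals of 11.79 and 11.77 against 11.75, 12.01 and 11.48. The single probe for Sf3b1, the scaffold subunit that is mutated in myelodysplastic syndromes with ring sideroblasts, lay above the floor on no array and was not tested. Without Flvcr-deleted replicate 2 the count of risen SF3 genes was 3, since Sf3a1 (0.51, adjusted p = 0.0636) and Sf3b4 (0.48, adjusted p = 0.0733) fell short. Without wild-type replicate 1 Sf3b4 did so too (0.50, adjusted p = 0.0508). With a gene's kept probes averaged, which brings in dim probes, the count was also 3 and the set's median 0.22, with Sf3a1 at 0.19 (adjusted p = 0.240) and Sf3b4 at 0.26 (adjusted p = 0.0698).

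PRPF genes did not move as a group. Prpf19, the ubiquitin ligase at the centre of the complex that activates the spliceosome, rose clearly, with 11.81 and 11.68 against 10.85, 10.74 and 10.85 (difference 0.93, SE 0.10, 1.90-fold, adjusted p = 1.32e-04). All 3 of its kept probes passed, at log2 differences of 0.93, 0.69 and 1.16. Prpf6, which joins U5 to U4/U6, read 9.09 and 9.32 against 8.68, 8.65 and 8.45 (0.61, SE 0.12, 1.53-fold, adjusted p = 0.00295). The groups of both genes lay well apart.

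Prpf8, the U5 protein at the heart of the catalytic core, read 9.93 and 10.50 against 9.69, 9.84 and 9.37 (difference 0.58, SE 0.19, adjusted p = 0.0365). The first of these arrays lay only just above the highest wild-type array. Leaving out Flvcr-deleted replicate 2 ended its call (0.30, adjusted p = 0.301), as did leaving out wild-type replicate 1 (0.61, adjusted p = 0.0947) or 3 (0.45, adjusted p = 0.0854), and it was lost with arrays centred on their own medians (0.53, adjusted p = 0.0560). A dimmer Prpf8 probe passed with 0.57 (adjusted p = 0.00972 over probes).

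Prpf18, a factor of the second catalytic step, was the PRPF gene that fell. It read 9.88 and 10.23 against 10.71, 10.65 and 11.04, with every Flvcr-deleted array below every wild-type array (difference -0.74, SE 0.15, 1.68-fold lower, adjusted p = 0.00406). Prpf38b came next at -0.43 (SE 0.15, adjusted p = 0.0537) and passed when Flvcr-deleted replicate 1 was left out or when wild-type replicate 3 was, where 2 PRPF genes were lower, and also with centred arrays or normexp correction (adjusted p = 0.0339 and 0.0340). The remaining 7 PRPF genes, Prpf3, Prpf4 and Prpf31 of U4/U6 among them, lay between -0.18 and 0.22 and did not pass, and Prpf31, Prpf39, Prpf40b and Prpf4b were dim, at 7.18 or below on every array. The 2 kept probes of Prpf4 gave 0.03 and -0.47, neither past the threshold.

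Of the 9 SR genes 3 fell (33.3%) and 1 rose (11.1%), and 6 lay above 0. Among all genes tested 17.5% were lower and 21.8% higher. Falls did not outnumber rises, at 1 each, when wild-type replicate 2 or 3 was left out, with a gene's probes averaged or with a variance trend. Srsf4, a long SR protein, fell most, with 10.26 and 10.58 against 10.95, 11.36 and 11.20 (difference -0.75, SE 0.15, 1.68-fold lower, adjusted p = 0.00325). This call held whichever array was left out, with differences from -0.91 to -0.59. It was the one fall of the set to do so.

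Srsf5 read 9.88 and 10.28 against 10.43, 10.43 and 10.56 (difference -0.40, SE 0.13, 1.32-fold lower, adjusted p = 0.0389). Srsf10, an SR-related protein that represses splicing when dephosphorylated, read 8.19 and 8.24 against 8.40, 8.75 and 8.65 (-0.38, SE 0.12, 1.30-fold lower, adjusted p = 0.0345). Both passed by little. For Srsf5 the call was lost when Flvcr-deleted replicate 1 was left out (-0.20, adjusted p = 0.361) and when any wild-type array was (-0.42, -0.42 and -0.36, adjusted p from 0.0588 to 0.0881). For Srsf10 it was lost without either Flvcr-deleted array (-0.36 and -0.41, adjusted p = 0.153 and 0.0991) and without wild-type replicate 2 or 3 (-0.31 and -0.36, adjusted p = 0.0873 and 0.0729). The count of SR genes that fell was therefore 1 when Flvcr-deleted replicate 1 was left out or when wild-type replicate 2 or 3 was, and 2 when Flvcr-deleted replicate 2 was left out or when wild-type replicate 1 was. It was 1 also with a gene's probes averaged or a variance prior that follows the signal.

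Srsf1, the best studied SR protein, was the one that rose, with 13.18 and 12.94 against 12.59, 12.75 and 12.80 (difference 0.35, SE 0.11, 1.27-fold, adjusted p = 0.0401). Its call was equally narrow, and when Flvcr-deleted replicate 1 was left out (0.23, adjusted p = 0.303) or when wild-type replicate 1 was (0.29, adjusted p = 0.124) no SR gene was higher. Without wild-type replicate 2 it also missed the threshold (0.36, adjusted p = 0.0598), while Srsf2 passed (0.40, adjusted p = 0.0381), and the median of the set was 0.10. Srsf2, which like SF3B1 is often mutated in myeloid disease, otherwise differed by 0.28 (SE 0.14, adjusted p = 0.170), with 12.98 and 13.10 against 12.51, 13.00 and 12.77. Srsf3, the smallest SR protein, differed by 0.20 (SE 0.16, adjusted p = 0.356), and its groups overlapped. Srsf6, Srsf9 and Srsf11 lay between 0.18 and 0.24 and did not pass, and Srsf12 was not above the floor.

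Several members are read by more than 1 probe, and the probes did not always move alike. Of 26 members with several kept probes, 14 had probes of opposite sign: Prpf3, Prpf38a, Prpf4, Sf3a1, Sf3b3, Sf3b4, Sf3b6, Lsm1, Lsm2, Lsm6, Srsf11, Srsf2, Srsf5 and Srsf6. For Sf3a1, Sf3b3 and Sf3b4, which rose by their brightest probe, the other kept probe was dim and did not pass, with log2 differences of -0.21, -0.04 and -0.03 (adjusted p over probes 0.217, 0.836 and 0.860). Over all kept probes, 21 of 88 member probes rose and 6 fell, beside 18.7% higher and 16.6% lower, or 35.3% in all, among the 17729 probes kept.

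In Srsf11, Srsf5 and Sf3b6 a probe with a negative difference passed the test. The brightest Srsf11 probe differed by 0.20 (adjusted p = 0.155 over probes) and a second by 0.13. The third, annotated to a cDNA record outside RefSeq, read 6.96 and 7.16 against 7.97, 7.87 and 7.55, a difference of -0.74 (SE 0.14, adjusted p = 0.00314 over probes). This probe fell where the gene's RefSeq probes did not pass. The 2 Srsf5 probes, annotated to different RefSeq transcripts of the gene, gave -0.40 (adjusted p = 0.0407 over probes) and 0.14 (adjusted p = 0.517), and with their mean the gene no longer passed (-0.13, adjusted p = 0.482). For Sf3b6, the branch point protein p14, the RefSeq probe differed by 0.29 (adjusted p = 0.0715 over probes), whereas a cDNA probe read 6.83 and 6.83 against 7.76, 7.52 and 7.04 (adjusted p = 0.0291). Its Flvcr-deleted signals lie at the floor, so the fitted difference of -0.61 does not measure the size of the fall. Which transcripts these probes report was not tested.

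**Figure D3:**
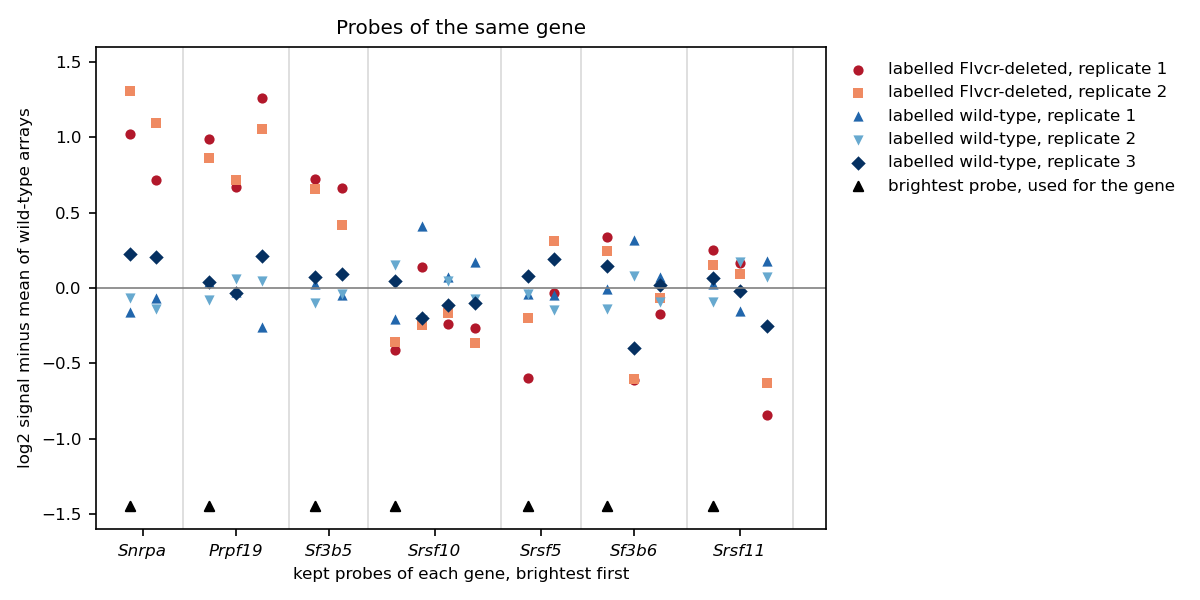
Log2 signal on each array minus the mean of the wild-type arrays (vertical axis) for every kept probe of 7 members, brightest probe to the left and marked by a triangle at the base. These members were chosen after their values were seen. The 2 Snrpa and 3 Prpf19 probes move alike, while a dim Srsf11 probe (-0.74) and a dim Sf3b6 probe (-0.61) go against the brightest one.

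The core of the binding site of ETS factors, CCGGAAG, was present in promoters of members that rose and of members that fell. It was found for 17 of the 44 members with a promoter entry (38.6%), against 9.93% of 27025 genes with an entry and 20.1% of 8220 genes tested here. It was present for 6 of 12 members that rose (Lsm5, Prpf19, Prpf6, Sf3a1, Sf3a3 and Sf3b3), 2 of 3 that fell (Srsf4 and Srsf5) and 7 of 24 that did not pass. The Srsf5 call was lost under several alternative settings, while that of Srsf4, whose promoter is not shown, held under all. The 100 bases before the start are shown for 2 genes that rose and 1 that fell, with the motif, on either strand, in capitals. It begins 68 bases before the Prpf19 start (upstream of its 2 entries, chr19:10895131-10895230, plus strand), 90 bases before that of Sf3a3 (chr4:124714761-124714860, plus strand), and 90 and 23 bases before that of Srsf5 (chr12:80945399-80945498, plus strand), in GRCm38.p6.
Prpf19: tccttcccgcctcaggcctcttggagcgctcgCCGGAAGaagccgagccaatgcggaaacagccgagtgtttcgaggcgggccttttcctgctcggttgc
Sf3a3: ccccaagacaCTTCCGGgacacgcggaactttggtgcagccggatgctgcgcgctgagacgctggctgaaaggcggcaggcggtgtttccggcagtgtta
Srsf5: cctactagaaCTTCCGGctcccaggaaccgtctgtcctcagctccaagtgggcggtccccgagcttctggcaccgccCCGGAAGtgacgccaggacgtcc

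Genes that work with the members were followed in 7 companion lists, of which 104 genes were tested. Of these 29.8% rose and 14.4% fell, beside 21.8% and 17.5% of all genes tested. Sm rings are built onto snRNA in the cytoplasm: the PRMT5 complex methylates Sm proteins, the SMN complex loads them, and snurportin carries the finished particle back to the nucleus. In this list 10 of 15 genes rose and none fell (1 fell without wild-type replicate 2), with a median log2 difference of 0.49. Prmt5, the methyltransferase, read 10.34 and 10.47 against 8.96, 9.18 and 8.85 (difference 1.41, SE 0.12, 2.66-fold, adjusted p = 4.21e-05). Gemin4, an SMN complex subunit, read 9.70 and 9.66 against 8.51, 8.43 and 8.12 (1.33, SE 0.13, 2.51-fold, adjusted p = 7.78e-05). Smn1 itself read 11.47 and 11.30 against 10.15, 10.15 and 10.16 (1.23, SE 0.10, 2.34-fold, adjusted p = 3.12e-05). In each of the 3 genes the groups lay more than 1 log2 unit apart in the mean, more than the median of the Sm ring itself.

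SR proteins are driven by phosphorylation, by SRPK kinases in the cytoplasm and CLK kinases in the nucleus. Of 15 SR kinases and SR-like genes, 3 rose and 3 fell (20% each), with a median of -0.09. These shares were near those of all genes tested, 21.8% higher and 17.5% lower. Clk3 read 9.62 and 9.31 against 10.87, 10.90 and 11.29 (difference -1.55, SE 0.15, 2.93-fold lower, adjusted p = 8.61e-05), and Clk4 read 9.17 and 9.22 against 10.36, 10.16 and 10.30 (-1.08, SE 0.10, 2.11-fold lower, adjusted p = 7.25e-05). Srpk1 read 10.17 and 10.35 against 9.39, 9.30 and 9.12 (0.99, SE 0.12, 1.98-fold, adjusted p = 2.11e-04). The groups were apart by several times their spread in all 3. Clk1 fell too (-0.87, SE 0.10, adjusted p = 1.67e-04), whereas Clk2 (-0.00054, SE 0.13, adjusted p = 0.998) and Srpk2 (0.15, SE 0.10, adjusted p = 0.286) did not pass.

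In the list of snRNP partners outside the 4 sets, 2 of 20 genes rose and 3 fell, a smaller share than among all genes, with a median of 0.10. Txnl4a, a small U5 protein, rose (0.99, SE 0.12, adjusted p = 2.24e-04), and the U1-associated Luc7l3 (-0.69, SE 0.19, adjusted p = 0.0169) and Luc7l2 (-0.67, SE 0.10, adjusted p = 6.82e-04) fell. Luc7l3 missed the threshold when Flvcr-deleted replicate 2 was left out (adjusted p = 0.0861) or when wild-type replicate 1 was (adjusted p = 0.0760). Without either of those arrays 1 gene of this list rose and 1 fell, and without Flvcr-deleted replicate 1 it was 1 and 2. Without wild-type replicate 3, 4 rose. Partners of Prpf19 and the helicases of the splicing steps had 8 of 18 genes higher (44.4%) and 2 lower (11.1%), with a median of 0.14. Among all genes tested 21.8% were higher and 17.5% lower, and among those above the floor on all arrays 28.5% and 23.7%. Isy1, a component of the activated spliceosome, rose by 1.08 (SE 0.09, adjusted p = 4.40e-05) and Ctnnbl1 by 0.60 (SE 0.13, adjusted p = 0.00482), and Syf2 fell (-0.77, SE 0.12, adjusted p = 8.18e-04). That count of 8 dropped to 2 without Flvcr-deleted replicate 1 and to 5 when replicate 2 of either group or wild-type replicate 1 was left out, and 1 gene was lower without either Flvcr-deleted array or without replicate 1 or 3 of wild type. The median of this list was 0.04 without Flvcr-deleted replicate 1.

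Among hnRNP genes, whose products bind nascent RNA and often oppose SR proteins, 8 of 23 rose and 5 fell, with a median of 0.13. Those shares, 34.8% and 21.7%, stand beside 28.5% and 23.7% of genes above the floor on all arrays. Hnrnpa0 (1.18, SE 0.14, adjusted p = 2.26e-04) and Hnrnpa1 (1.10, SE 0.15, adjusted p = 4.08e-04) rose, and Hnrnpdl fell (-1.14, SE 0.17, adjusted p = 6.87e-04), though not with the mean of its probes (-0.19, adjusted p = 0.288). When Flvcr-deleted replicate 2 or wild-type replicate 1 was left out, 3 rose and 3 fell. When Flvcr-deleted replicate 1 or wild-type replicate 2 was left out, 2 fell. Of 8 genes of the exon junction complex and nonsense-mediated decay, none rose and 2 fell, Smg6 (-0.78, SE 0.12, adjusted p = 0.00112) and Smg5 (-0.37, SE 0.11, adjusted p = 0.0324). The share that fell, 25%, was near the 23.7% of genes above the floor on all arrays, and 17.5% of all genes tested were lower. Smg5 missed the threshold when Flvcr-deleted replicate 1 was left out (-0.27, adjusted p = 0.231) or when wild-type replicate 2 or 3 was (adjusted p = 0.0627 and 0.0800), and 1 gene of the list fell when Flvcr-deleted replicate 1 or wild-type replicate 2 was left out. Without Flvcr-deleted replicate 2, 3 fell. None of 5 genes of the minor spliceosome, which removes a rare class of introns, passed (limma, median -0.14), and 2 were lower without wild-type replicate 2.

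**Figure D4:**
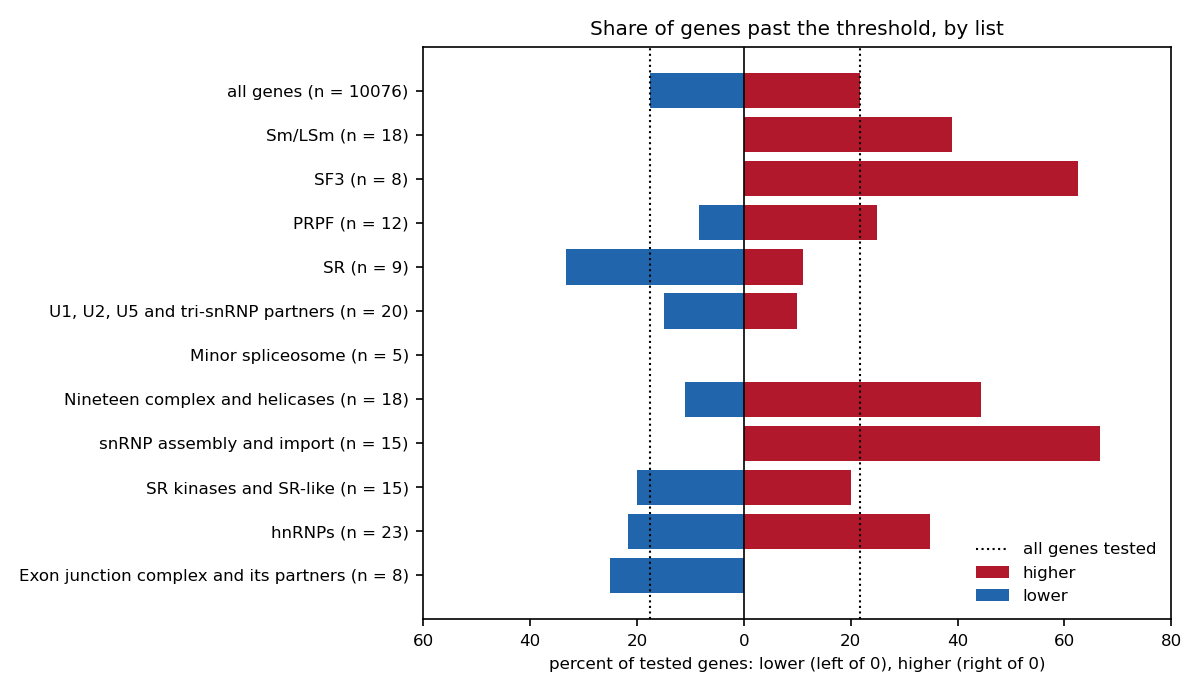
Percent of tested genes past the threshold, higher to the right of 0 and lower to the left, for the 4 sets of members and the 7 companion lists, with the number tested in each. Dotted lines mark all 10076 genes tested, 21.8% higher and 17.5% lower. SF3 and snRNP assembly have the longest bars to the right with none to the left, and SR genes have a longer bar to the left than to the right.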

How the data were processed

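Total RNA of 5 erythroblast samples was measured on Illumina bead arrays, grouped by title into 3 wild type and 2 Flvcr deleted. The log2 signals used are those the authors deposited. No label or header names the software, so the scale was inferred: all arrays share 1 distribution from 6.35 to 15.06, as quantile normalization gives, and the log base is taken to be 2. A table of unnormalized signals, with 10 columns of per-sample values, was not used, since no label matches their names. The number of arrays limits the precision.

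A background floor of 6.83 was set from the background peak (6.70) and its lower-side SD (0.0823), as peak + 1.64 SD. Of 45281 probes, 34885 had 1 platform symbol, 18 several and 10378 none. The 17729 probes above the floor on at least 2 arrays gave 10076 genes, each read by its brightest probe. All genes were fitted together with limma 3.58.1 in R 4.3.3 (3 residual and 5.64 prior degrees of freedom), two-sided, with Benjamini-Hochberg adjustment and a threshold of 0.05.

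The members and companion lists were chosen with earlier results of these data known. Genes given in full are the up to 5 members per set with the largest difference past the threshold and no overlap, members that fell or whose probes differ in sign, members not above background, a fixed group (Snrpb, Snrpd1, Snrpd3, Lsm2, Lsm4, Sf3b1, Sf3a3, Prpf8, Prpf19, Srsf1, Srsf2, Srsf3 and Srsf5), and up to 3 genes per companion list. Clk1, Clk2, Srpk2, Snrpg, Lsm3, Lsm8 and Prpf38b were named after their values were seen. Alternatives were normexp background correction (offset 50), other filters and probe rules, centring, a variance trend, a replicate block, a minimum of 1.5-fold, updated symbols and leaving out each array. All 52 member symbols matched the RefSeq gene table of GRCm38.p6, from which promoters were also taken.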

Additional observations from a re-analysis of the deposited data

How the results depend on the processing

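The 20 members past the threshold kept their sign under each of 12 alternatives, which leave out the minimum of 1.5-fold, the count by probe and the updated symbols. Of the 20, 11 passed under all 12 (Lsm5, Prpf18, Prpf19, Prpf6, Sf3a3, Sf3b3, Sf3b5, Snrpa, Snrpd2, Snrpf and Srsf4). No Sm/LSm gene was lower under any alternative. Values that moved follow, and the cause was not tested. With normexp correction the median of all genes was 0.015, 2 PRPF genes fell and 0 SR genes rose, 4 snRNP partners rose, 5 SR kinases and SR-like genes fell, the assembly median was 0.68, and Clk2 turned to 0.00091. With only genes above the floor on all arrays, the median of all genes was 0.027, 2 PRPF genes and 1 exon junction gene fell, and medians were 0.60 for assembly and -0.13 for SR kinases and SR-like genes. With no filter, the median of all genes was -0.0017, and 1 snRNP partner and 5 genes around Prpf19 rose. With a gene's probes averaged, 2 members fell and the members' median was 0.15; 3 SF3 genes rose (median 0.22), the PRPF median was 0.019, 1 SR gene fell (median 0.016), lower genes numbered 1 around Prpf19, 1 in assembly and 2 hnRNPs (hnRNP median 0.041), and the sign turned for Prpf4 (-0.22), Sf3b6 (-0.14), Lsm2 (0.0049), Lsm6 (0.052) and Srsf11 (-0.14), none past the threshold before. With every kept probe counted, 3315 probes of all genes rose and 2949 fell (median 0.0048), medians were 0.17 for members, 0.17 for SF3, 0.077 for SR, 0.047 for snRNP partners and 0.36 for assembly, 1 SF3 probe fell and 6 PRPF probes rose, and probes higher and lower numbered 5 and 9 for partners, 16 and 1 for assembly and 20 and 8 for hnRNPs, with 5 SR kinase and SR-like probes lower. With arrays centred on their medians, the median of all genes was -0.040, 2 PRPF genes fell and 0 SR genes rose, the partner median was 0.053, 5 genes around Prpf19 rose, 1 assembly gene fell (median 0.44), the SR kinase and SR-like median was -0.14, and Prpf4 turned to -0.019. With a variance trend, 2 PRPF genes, 1 SR gene, 5 genes of the list of SR kinases and SR-like genes and 3 hnRNPs fell. With a minimum of 1.5-fold, 1268 of all genes rose and 1112 fell, 9 members rose and 2 fell, 2 SF3 genes rose, 0 SR genes rose and 1 fell, 1 partner rose, 2 genes around Prpf19 rose and 1 fell, 4 hnRNPs rose and 2 fell, and 1 exon junction gene fell.

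The labels do not say that same-numbered arrays form pairs, and the main fit did not pair them. Deviations of same-numbered arrays from their group means gave r = -0.03 for replicate 1 and 0.10 for replicate 2, over genes. With 2 Flvcr-deleted arrays the deviations of that group mirror each other, so these values are not separate checks and cannot exclude pairing. With the replicate number as a block, 19 members rose and 5 fell, with a median of 0.25; 2 PRPF genes fell, 5 snRNP partners rose, 5 genes of the SR kinase and SR-like list fell (median -0.17), and Lsm2 turned to 0.079. Leaving out 1 array at a time, members lower ranged from 2 to 3 and their median from 0.17 to 0.25; SF3 higher from 3 to 6; PRPF lower from 1 to 2; SR higher from 0 to 1, lower from 1 to 2 and median from 0.10 to 0.22. The median of all genes ranged from 0.0099 to 0.015. Partners higher ranged from 1 to 4, lower from 1 to 3 and median from 0.041 to 0.13; genes around Prpf19 higher from 2 to 6, lower from 1 to 2 and median from 0.038 to 0.22; assembly lower from 0 to 1 and median from 0.47 to 0.59; minor spliceosome lower from 0 to 2. The SR kinase and SR-like median ranged from -0.17 to 0.03, hnRNPs higher from 3 to 7, lower from 2 to 4 and median from 0.069 to 0.26, and exon junction genes lower from 1 to 3 and median from -0.30 to -0.0066. Prpf4 ranged from -0.032 to 0.11, Lsm1 from -0.098 to 0.44, Lsm2 from -0.14 to 0.079, Lsm8 from -0.12 to 0.43 and Clk2 from -0.081 to 0.11. Without either Flvcr-deleted array only 1 was left in that group, and fewer of all genes tested passed as well, in both directions. Updating symbols changed no member. Genes near background, such as Prpf31, limit what these arrays can show.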

Other observations

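Further letters were searched in the same promoter windows, on both strands, and no motif searched contains another. The GC box GGGCGG was found for 31 of 44 members (70.5%), against 65.6% of 8220 genes tested, and CCAAT for 20 of 44 (45.5%), against 43.6%. The TATA box TATAAA was found for 4 of 44 (9.09%), against 9.95%. The GATA letters AGATAA were found for 2 of 44 (4.55%), against 8.33% of the genes tested, and both genes, Lsm5 and Sf3b3, were among the members that rose. These shares describe letters in windows of 300 bases, and no test was made of them.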
